A study of Mus musculus with 8 samples.

Results

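Myc and its neighbour Pvt1 lie on mouse chromosome 15, and the listed ATAC-seq regions around them were described here from 500 kb before Myc to 500 kb after Pvt1. Myc and Pvt1 were found by symbol in RefSeq's gene table of GRCm38.p6 (mm10), and a region was counted in this window when its midpoint lay at chr15:61485341-62760215. The 0.1 µM list held 20 regions there of 14401 in all, the 0.5 µM list 13 of 11130 and the 1 µM list 23 of 15894. ATAC-seq uses the Tn5 transposase, which cuts and tags DNA that is free of nucleosomes. It was run on Hepa-1c1c7, an established mouse hepatoma cell line, after 72 h of potassium chromate, a source of hexavalent chromium, at doses of 0.1, 0.5 and 1 µM, and on the line without chromium (0 µM). Every dose had 2 libraries, 8 in all, and nothing in the labels says whether the 2 came from separate cultures. Each of the 3 deposited lists stands for both libraries of a treated dose and names the untreated cells as its partner.

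A list gives no value per library, so the values have no replicate error and no difference between doses was tested. The depth of the libraries is unknown here. The sources used here do not give whether a listed region was more open in treated than in untreated cells. A listed region is therefore read only as listed, and one that is not listed is not shown to be closed. In the labels the prefix of the 1 µM libraries (N503) differs from that of all others (N502), and its part cannot be told apart from that of the dose. All lists share the untreated libraries. Of 11 hepatocyte marker genes, Apoa2 and Foxa2 had a listed region at most 1 kb from an end in every list and the other 9, Alb and Hnf4a among them, had none in any list. Of the 12 marker genes of other lineages, Dcn had a region at 0.5 and 1 µM, Snap25 at 0.1 µM, and the other 10 none. Over all protein-coding genes, 14.2% had such a region in every list, so the hepatocyte genes, at 18.2%, stood near this background. In no list was one given for 73.2% of all protein-coding genes, beside 9 of the 11 hepatocyte genes and 10 of the 12 of other lineages.

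Myc encodes the transcription factor c-MYC, which binds DNA as a dimer with MAX and drives cell growth, ribosome production and entry into the cell cycle. Pvt1 encodes a long non-coding RNA and is a known site of retroviral insertion and of chromosome breaks in mouse and human tumours. In human cells the PVT1 gene holds enhancers that act on MYC, and a site bound by the insulator protein CTCF lies just upstream of the MYC promoter. Both mouse genes are transcribed towards higher coordinates. Myc, a protein-coding gene, spans chr15:61985341-61990361 (5.02 kb) and Pvt1, a lncRNA gene, chr15:62037986-62260215 (222 kb), with 47.6 kb between them. Myc is the only protein-coding gene of the window. The nearest others are A1bg, 1064 kb before Myc, and Gsdmc, a gasdermin gene, 1516 kb after Pvt1.

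The window was not denser in listed regions than the rest of chromosome 15. It held 15.7 regions per Mb at 0.1 µM, against 18.1 over the rest of the chromosome, 10.2 against 16.3 at 0.5 µM and 18.04 against 20.4 at 1 µM. The ratio of the window to the rest was 0.865 at 0.1 µM (95% interval 0.559 to 1.34), 0.624 at 0.5 µM (0.364 to 1.07) and 0.885 at 1 µM (0.589 to 1.33). Every interval holds 1, so a difference of the window from the rest was not detectable. They are Wilson intervals of the share of chromosome 15 regions that lie in the window, they cover counting error only, and they treat regions as independent, although regions cluster. The ratio turned on the width of the window. With flanks of 1000 kb it was 0.651, 0.454 and 0.665 in order of dose, with intervals that end at 0.949, 0.728 and 0.946, and with no flanks, from the start of Myc to the end of Pvt1, it was 1.41, 0.894 and 1.97, where the interval at 1 µM began at 1.10. Against all other chromosomes, the window was 3.17, 2.73 and 3.31 times as dense in order of dose. The rest of chromosome 15 is itself denser than the other chromosomes, which held 4.95, 3.73 and 5.45 regions per Mb.

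Windows of the same length, 1275 kb, were laid end to end along chromosome 15 from this one. At 0.1 µM the Myc and Pvt1 window held 20 regions, against a median of 22 in 80 other windows, of which 43 held more. At 0.5 µM it held 13, against a median of 19, and 49 windows held more. At 1 µM it held 23, against a median of 27.5, and 42 windows held more. It therefore stood a little below the middle of the chromosome in each list. Among the 19 other windows with at most 1 protein-coding gene, the medians were 15, 11 and 12 regions in order of dose. Of these windows, 7, 9 and 6 held more regions than the Myc and Pvt1 window. The 19 include chr15:291341-1566215 and chr15:1566216-2841090, at the start of the chromosome, which had 0 regions in every list. Such empty windows can only lower a median or leave it, and medians without them were not computed. At 0.5 µM 9 windows held more and 10 fewer, so the side of the median depends on these windows at the chromosome start. The direct neighbours of the Myc and Pvt1 window held fewer in each list. The window before it held 11, 8 and 13 regions in order of dose, and the window after it 9, 8 and 11.

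**Figure D1:**
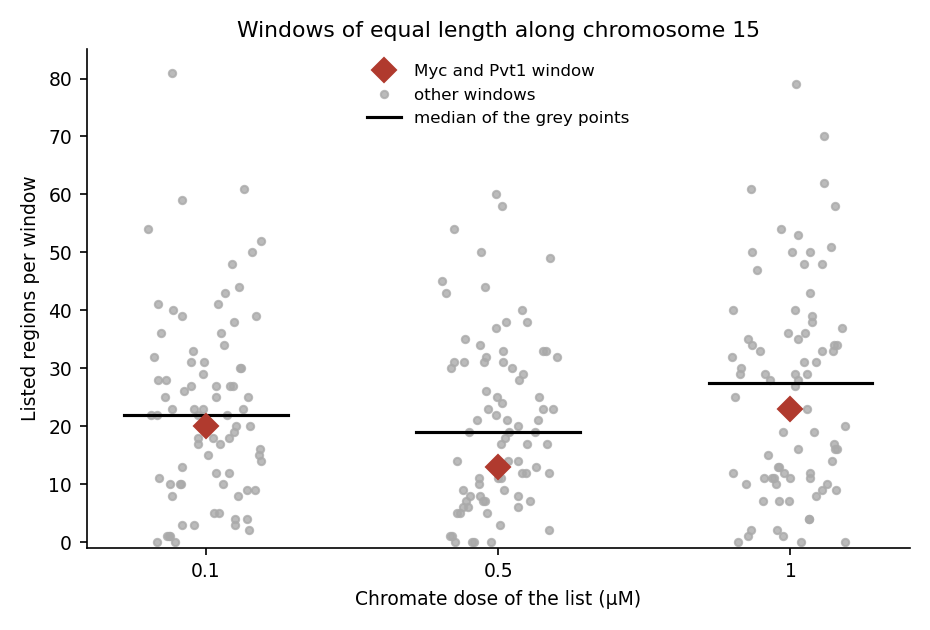
Number of listed regions (vertical axis) in windows of equal length along chromosome 15, for each list by chromate dose (horizontal axis). The diamonds, the Myc and Pvt1 window with 20, 13 and 23 regions, lie below the black lines, the medians of the 80 other windows (22, 19 and 27.5), which are the grey points spread sideways at random.

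Within the window the regions were unevenly spread, although each stretch held few of them and no test was made. The 500 kb before Myc held 5, 4 and 7 regions in order of dose, or 10, 8 and 14 per Mb. Pvt1 itself held 6, 3 and 6 by midpoint, or 27.0, 13.5 and 27.0 per Mb. The 500 kb after Pvt1 held 8, 5 and 5, or 16, 10 and 10 per Mb. In all lists most of the stretch before Myc was empty. In each list no region was given for 212 kb between a region in D030024E09Rik, a lncRNA gene, and the region just before Myc. At 0.1 and 0.5 µM an empty stretch of 217 and 218 kb lay before that region in D030024E09Rik. On chromosome 15 the median gap between listed regions was 21.9, 24.8 and 17.9 kb in order of dose, and within the window 33.2, 42.6 and 25.8 kb. Of the 1882, 1692 and 2116 gaps on the chromosome, 83, 100 and 94 were at least as long as the one that ends at the region before Myc.

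**Figure D2:**
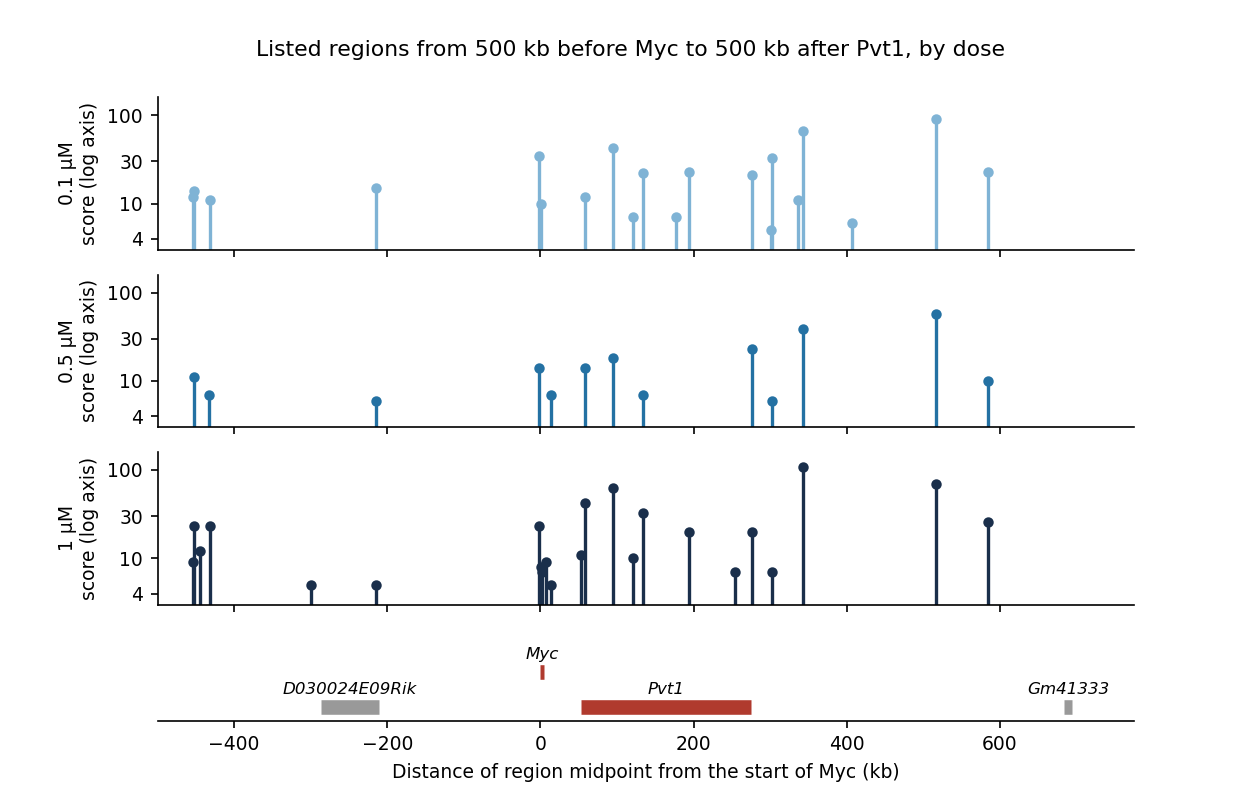
Listed regions of the 0.1, 0.5 and 1 µM lists, one panel each, by the distance of their midpoint from the start of Myc (horizontal axis, kb) and the authors' score (vertical axis, log scale, no unit given). The bottom row shows Myc and Pvt1 in red and the lncRNA genes D030024E09Rik and Gm41333 in grey (3 pseudogenes are left out); the regions are sparse in the stretch before Myc and the highest scores stand at 343 and 516 kb, after Pvt1.

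Just upstream of Myc, a region was listed at every dose. It lay at chr15:61983305-61983782 at 0.1 µM, chr15:61983365-61983729 at 0.5 µM and chr15:61983158-61983664 at 1 µM, so that its nearer edge was 1559, 1612 and 1677 bp before the start of the gene. The authors' score for it, a whole number of unstated scale, was 35, 14 and 23 in order of dose. It is used here only to rank regions within a list, and these ranks put the region at percentile 89.4, 67.3 and 75.6 of all regions of its list (100 is the highest score). Of the regions in the 500 kb before Myc it ranked highest at 0.1 and 0.5 µM, and tied with 2 others at 1 µM. No genome sequence was used here, so no motif was looked for in it.

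At the start of Myc itself a region was listed at 0.1 µM and 1 µM and not at 0.5 µM. At 0.1 µM it lay at chr15:61985454-61985695 and at 1 µM at chr15:61985438-61985644, with the nearer edge 113 and 97 bp inside the gene. Its score was 10 at 0.1 µM (percentile 44.8, the same as the median of the rest of chromosome 15) and 8 at 1 µM (percentile 23.8, against a median of 43.4). A region within 1 kb of an end was listed for 19.5% of all 21631 protein-coding genes at 0.1 µM, 18.7% at 0.5 µM and 23% at 1 µM, and for 30.3%, 31.2% and 33.8% of the 776 on chromosome 15. The same pattern, listed at 0.1 and 1 µM but not at 0.5 µM, was found at 683 protein-coding genes (3.16%), 19 of them on chromosome 15 (2.45%). With a limit of 2.5 kb, Myc had a region in every list through the upstream region, as did 16% of all protein-coding genes and 28.5% of those on chromosome 15.

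The 1 µM list held 3 more regions near Myc that the 0.1 µM list lacked. One lay inside the gene at chr15:61987023-61987250 (score 7), and one 1499 bp after its end at chr15:61991860-61992101 (score 9), and neither was in the other lists. The third, at chr15:61998949-61999157 with a score of 5, lay 8.59 kb after the end of Myc and was also listed at 0.5 µM (chr15:61998961-61999162, score 7). All of them ranked at or below percentile 31.6 in their lists. From that region to the start of Pvt1, 38.8 kb away, no region was listed at 0.1 or 0.5 µM.

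**Figure D3:**
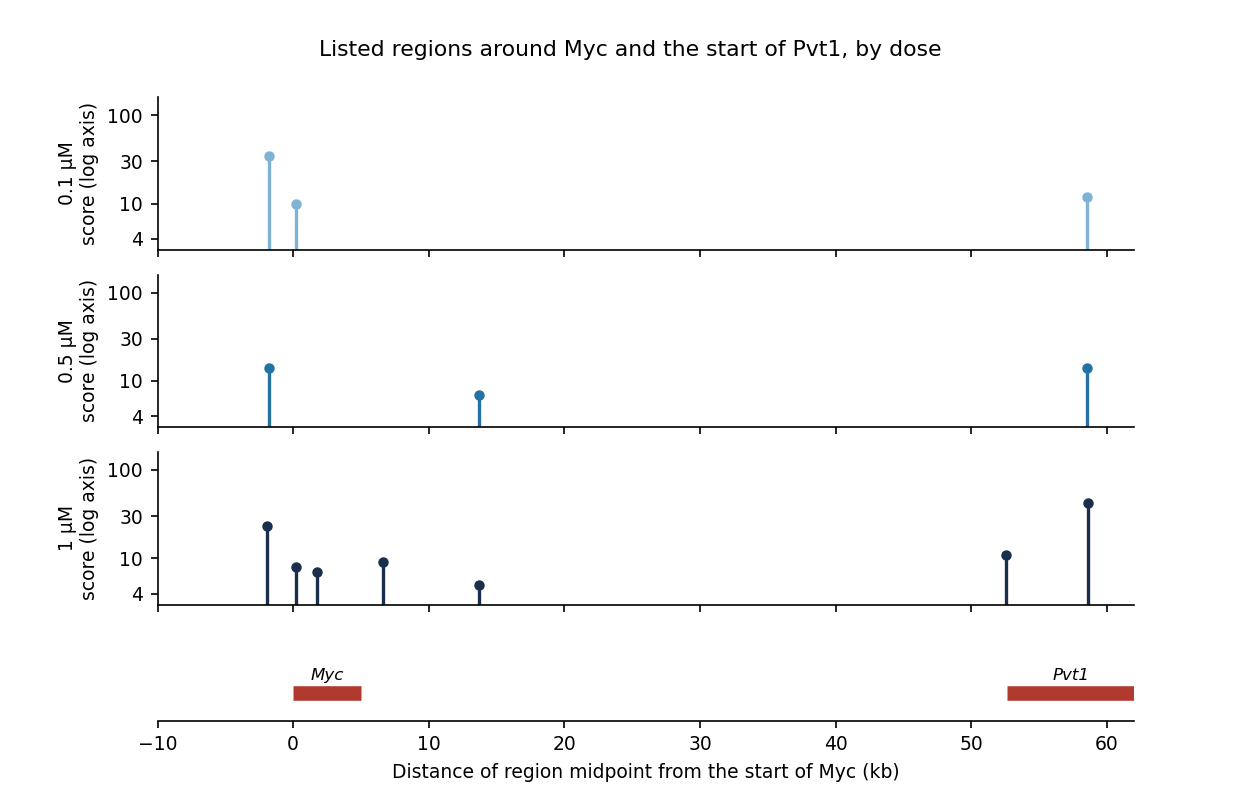
Listed regions of the 0.1, 0.5 and 1 µM lists, one panel each, from 10 kb before to 62 kb after the start of Myc (horizontal axis, distance of the midpoint in kb), with the authors' score (vertical axis, log scale, no unit given). Myc and the first part of Pvt1 are the red bars; the region just before Myc and the one inside the first part of Pvt1 appear in every panel, the region at the Myc start at 0.1 and 1 µM, and a region across the Pvt1 start only at 1 µM.

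A region across the start of Pvt1 was listed at 1 µM alone, at chr15:62037736-62038028 with a score of 11 (percentile 43.4). Within 1 kb of an end, 8.33%, 7.38% and 9.57% of 12697 lncRNA genes had a region in order of dose, and 18.6%, 19.5% and 21.9% of the 539 on chromosome 15. The pattern of Pvt1, listed at 1 µM alone, was found at 1.70% of all lncRNA genes and 3.53% of those on chromosome 15. A region at the other end of Pvt1 was in every list, its merged span centred 1.54 kb past that end (chr15:62261550-62261891 at 0.1 µM, chr15:62261540-62261899 at 0.5 µM and chr15:62261564-62261961 at 1 µM). Its scores were 21, 23 and 20. Within 2.5 kb of an end, Pvt1 was therefore listed at each dose, as were 7.43% of all lncRNA genes and 19.7% of those on chromosome 15.

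Inside Pvt1, 3 regions were listed at every dose. The first lay 5.94 kb into the gene (chr15:62043745-62044035 at 0.1 µM) and scored 12, 14 and 42 in order of dose. The second, at 41.5 kb (chr15:62079105-62079801 at 0.1 µM), scored 43, 18 and 62 and had the best rank in the gene in each list, at percentile 92.8, 77.8 and 95.2. The third, at 81.3 kb (chr15:62118946-62119408 at 0.1 µM), scored 22, 7 and 33. Scores are not read as differences between doses. The region at 141 kb (chr15:62178591-62178919 at 0.1 µM) was listed at 0.1 and 1 µM with scores of 23 and 20, and that at 68.7 kb with 7 and 10. A region at 124 kb was listed at 0.1 µM alone and one at 201 kb at 1 µM alone, both with a score of 7. No region of the 0.5 µM list inside Pvt1 was missing from another list.

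Set against other long genes of chromosome 15, Pvt1 lay above the median and within the range in each list. It had 2.70 regions per 100 kb at 0.1 µM, against a median of 1.64 over 112 other protein-coding and lncRNA genes of at least 100 kb, and 28 of them had more. At 0.5 µM it had 1.35, against a median of 1.29, and 52 had more. At 1 µM it had 2.70, against a median of 1.90, and 40 had more. Over 2079 genes of 0.5 to 2 times its length, on any chromosome and outside the window, those with the densities nearest to Pvt1 were Fbxl7, an F-box protein gene on chromosome 15 (9, 5 and 9 regions), Ext1, a heparan sulphate polymerase gene on chromosome 15 (8, 4 and 7 regions), and Tnrc6a, a gene of microRNA-guided silencing on chromosome 7 (4, 2 and 4 regions). Likeness was the Euclidean distance in regions per 100 kb over the 3 lists, which was 0.241, 0.270 and 0.396 for these genes.

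**Figure D4:**
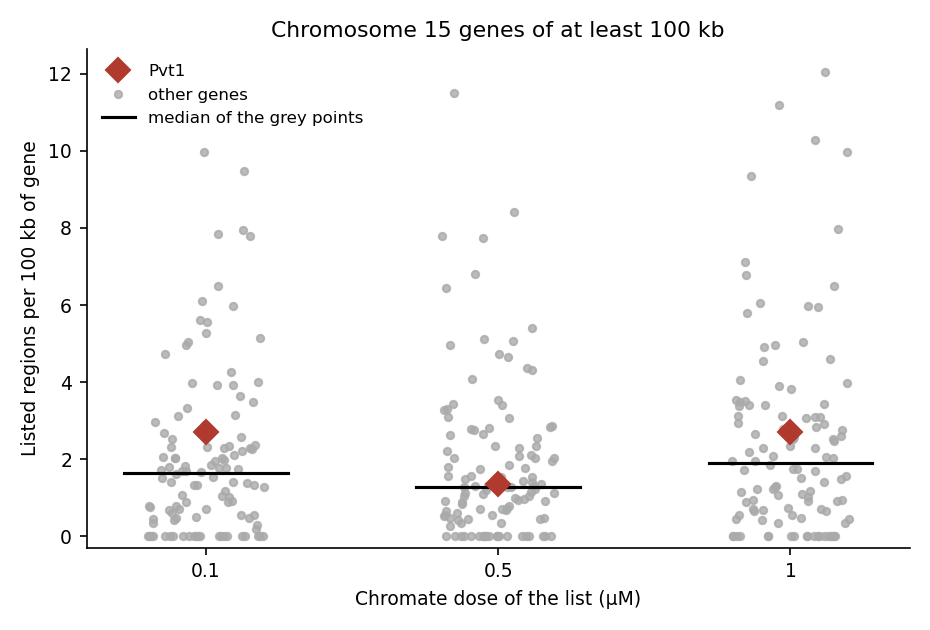
Listed regions per 100 kb of gene (vertical axis) by chromate dose of the list (horizontal axis) for protein-coding and lncRNA genes of chromosome 15 of at least 100 kb. The diamonds are Pvt1 (2.70, 1.35 and 2.70), which lies above the black lines, the medians of the 112 other genes (1.64, 1.29 and 1.90), and well inside the range of the grey points.

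The strongest regions of the window lay after Pvt1, away from any annotated gene. By mean rank over the lists the first was at chr15:62500885-62501472 (0.1 µM), 241 kb past the end of Pvt1 and 516 kb from the start of Myc, with the scores 91, 57 and 70 in the same order. It ranked at percentile 98.6, 97.8 and 96.1. The second, at chr15:62328278-62329167 (0.1 µM), 68.6 kb past Pvt1, scored 66, 39 and 109 and ranked at percentile 97.1, 94.9 and 98.4. The region at 41.5 kb in Pvt1, the one just past its end and the one just upstream of Myc took the next places in the window. Another region, 309 kb past Pvt1 (chr15:62569246-62569783 at 0.1 µM), was also in every list, with scores of 23, 10 and 26. The lncRNA gene Gm41333, further along, had no region within 99 kb.

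At 27.0 kb past Pvt1 the lists divided the same stretch differently. The 0.1 µM list had 2 regions there, chr15:62286888-62287086 (score 5) and chr15:62287173-62287672 (score 33). A single region overlapped both at 0.5 µM (chr15:62286721-62287658, score 6) and at 1 µM (chr15:62286854-62287759, score 7). Regions at 60.8 and 132 kb past Pvt1 were listed at 0.1 µM alone, with scores of 11 and 6.

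Before Myc, a cluster of regions lay 432 to 453 kb upstream. Of its 4 merged regions, those at 452 and 432 kb were listed at every dose (scores 14, 11 and 23, and 11, 7 and 23), that at 453 kb at 0.1 and 1 µM (12 and 9) and that at 444 kb at 1 µM alone (12). A region 214 kb upstream lay inside the lncRNA gene D030024E09Rik, 3.09, 3.21 and 3.31 kb from its nearer end in order of dose, and scored 15, 6 and 5. The remaining one, 300 kb upstream, was listed at 1 µM alone (score 5). The pseudogenes Gm18154, Gm18788 and Macroh2a3 of the window held no region.

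Merging the lists gave 26 regions in the window, of which 12 were listed at every dose. That is 46.2% (Wilson 95% interval 28.8 to 64.5), against 29.4% of 3135 merged regions over the rest of chromosome 15 (27.8 to 31.0) and 35.4% of 17890 on other chromosomes. A further 5 were listed at 2 doses (19.2%, beside 15.7% over the rest of chromosome 15 and 23.9% on other chromosomes). The other 9 were listed at 1 dose (34.6%, interval 19.4 to 53.8, beside 55.0% and 40.7%). Of these, 6 were at 1 µM alone (23.1%, beside 22.7% and 18.7%) and 3 at 0.1 µM alone (11.5%, beside 17.8% and 14.5%). At 0.5 µM alone there were 0 of 26, which allows a share of up to 11.5% (3 counts of the total). The Wilson 95% interval of the window's share at 0.5 µM alone ends at 12.9%. Over the rest of chromosome 15, 14.5% of merged regions were listed at 0.5 µM alone, and on other chromosomes 7.52%. The interval of the window's share at every dose holds the values of both the rest of chromosome 15 and the other chromosomes. That of its share at 1 dose ends below the value of the rest of chromosome 15 and holds that of the other chromosomes. At 0.5 µM alone, both upper limits lie below the value of the rest of chromosome 15 and above that of the other chromosomes. These limits treat regions as independent, although regions cluster and the lists share the untreated libraries, so no difference is read from them. The regions at every dose had scores of 5 to 109 with a median of 22.5, and those at 1 dose scores of 5 to 12 with a median of 7. In their own lists, the regions at 1 dose ranked no higher than percentile 50.3.

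Of the 13 window regions at 0.5 µM, 13 overlapped a region at 1 µM and 12 a region at 0.1 µM, or 100% and 92.3%, against 68.9% and 62.2% for the rest of chromosome 15. Seen from the longer lists, 56.5% of the 1 µM and 65.0% of the 0.1 µM regions of the window overlapped one at 0.5 µM, against 52.7% and 54.8% over the rest of the chromosome. Because the lists share the untreated libraries, these shares are given as a description.

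By score, the window's regions ranked at a median percentile of 61.6 at 0.1 µM, against 44.8 over the rest of chromosome 15, 54.8 against 42.9 at 0.5 µM and 47.5 against 43.4 at 1 µM. On other chromosomes the medians were 50.3, 49.3 and 51.1 in order of dose, so at 1 µM the window ranked lower than these. The top 10% of a list held 3 of 20, 2 of 13 and 4 of 23 of them. The window's regions had a median width of 336, 365 and 299 bp from the lowest to the highest dose, against 333, 320 and 360 bp over the rest of chromosome 15. No test was made.

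Other genes of the MYC network, its dimer partners, cofactors and regulators, are given beside the share of all protein-coding genes. The counts were at most 8 genes per list, and no difference from that share was tested. Of 28, a region lay within 1 kb of an end in 8 at 0.1 µM, 4 at 0.5 µM and 8 at 1 µM (28.6%, 14.3% and 28.6%, beside 19.5%, 18.7% and 23%). In 4 it was listed at every dose (14.3%, against 14.2% of all protein-coding genes). These were Max, the partner of c-MYC (scores 11, 7 and 27), Usp28, a deubiquitinase that stabilises c-MYC (14, 7 and 11), Mlxip, which pairs with MLX (6, 9 and 10), and Mnt, which competes for MAX (5, 10 and 9). Of the other MYC family genes, Mycn had no region at an end in any list, as did 73.2% of all protein-coding genes. Mycl had one at 0.1 µM (score 8).

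Genes known as targets of c-MYC were listed at larger shares. Of 30, a region was listed for 11 at 0.1 µM, 11 at 0.5 µM and 17 at 1 µM (36.7%, 36.7% and 56.7%, beside 19.5%, 18.7% and 23% of all protein-coding genes), and for 8 at every dose (26.7%, beside 14.2%). The list was chosen with earlier results of these data known, was given no test, and holds genes of growth and replication that many tissues keep active. By mean rank over the lists, Eif4e, the cap-binding translation factor, came first (scores 40, 34 and 38), followed by Ncl, which encodes nucleolin (21, 10 and 37), the chaperone genes Hspd1 and Hspe1, which share a promoter and so the same region (38, 19 and 6), and Npm1, which encodes nucleophosmin (11, 15 and 11). The RNA polymerase I subunit gene Polr1b scored 14, 7 and 20, E2f1 19, 7 and 14 and Cdk4, a kinase of the G1 phase, 11, 14 and 6.

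c-MYC and MAX bind the letters CACGTG, the E-box. Promoter sequences from RefSeq (GRCm38.p6, 250 bases before to 50 after an annotated start, of which a gene can have several) were found for 25 of the 30 target genes, and 6 of the 25 (24.0%) held CACGTG in at least 1 of them, beside 8.09% of all genes with such a sequence. Of all 32851 promoter sequences of this length, 7.15% held it. The target genes were chosen as known targets of c-MYC, so their share is not independent evidence on the motif. CACGTG reads the same on both strands, and overlaps with other motifs were not examined. A listed region overlapped the promoter at every dose in 6 of the 25 genes (24.0%, beside 10.2% of all 26794 genes of chromosomes 1 to 19 and X with a promoter sequence), and 3 of these held CACGTG. The share with CACGTG over all genes with a listed promoter was not computed, so the 3 of 6 are not read as a link between listing and motif. These 3 genes are shown because they join a listed promoter with the letters that c-MYC binds. Capitals mark CACGTG and the strand is that of the gene. Eif4e lies at chr3:138527018-138527317 (plus strand), Hspd1 at chr1:55088194-55088493 (minus strand) and Cdk4 at chr10:127063285-127063584 (plus strand).
Eif4e: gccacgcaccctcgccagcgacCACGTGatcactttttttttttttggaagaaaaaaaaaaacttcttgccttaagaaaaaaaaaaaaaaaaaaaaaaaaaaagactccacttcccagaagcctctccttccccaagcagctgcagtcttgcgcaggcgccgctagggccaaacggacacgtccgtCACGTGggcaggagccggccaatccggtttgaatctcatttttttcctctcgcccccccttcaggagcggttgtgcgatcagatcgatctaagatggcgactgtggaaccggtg
Hspd1: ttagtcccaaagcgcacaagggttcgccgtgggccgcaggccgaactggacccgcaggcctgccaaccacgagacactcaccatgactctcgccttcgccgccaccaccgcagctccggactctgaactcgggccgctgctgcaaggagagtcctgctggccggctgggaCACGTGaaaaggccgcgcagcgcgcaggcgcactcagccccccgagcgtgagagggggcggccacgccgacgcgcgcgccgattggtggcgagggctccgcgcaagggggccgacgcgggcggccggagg
Cdk4: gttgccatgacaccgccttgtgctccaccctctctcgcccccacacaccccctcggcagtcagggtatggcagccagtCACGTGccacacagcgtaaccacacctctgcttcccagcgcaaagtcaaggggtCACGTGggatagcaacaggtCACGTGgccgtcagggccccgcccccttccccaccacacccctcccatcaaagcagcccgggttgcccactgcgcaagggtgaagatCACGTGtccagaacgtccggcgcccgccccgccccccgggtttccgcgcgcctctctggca
Cdk4 held 4 copies, Eif4e 2 and Hspd1 1. The regions over these promoters scored 40, 11 and 38 for Eif4e, 38, 19 and 6 for Hspd1 and 11, 14 and 6 for Cdk4. For Eif4e at 0.5 µM this is another region than the one scored at the gene's ends above. They covered 288, 300 and 300 bases of the Cdk4 promoter in order of dose, 300 at each dose for Eif4e, whose printed start lies inside the gene's annotated span, and 235, 300 and 300 for Hspd1. A match of letters is a description and not a bound site.

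Along chromosome 15 around the locus, 35 protein-coding genes lie from Fer1l6 to Zfat. A region within 1 kb of an end was listed for 17 at 0.1 µM, 14 at 0.5 µM and 18 at 1 µM (48.6%, 40% and 51.4%, beside 30.3%, 31.2% and 33.8% over the chromosome), and for 13 at every dose (37.1%, beside 24.6%). A hand-picked list of 18 of these genes, which leaves out A1bg and Gsdmc3 among others, had a region in 9, 7 and 10 cases in order of dose and at every dose in 6. By mean rank over the lists, Efr3a, a gene for a plasma membrane protein, came first of these 6 (78, 62 and 102), followed by Ndrg1, a stress response gene (21, 47 and 76), and Zfat, a zinc finger gene (31, 36 and 27). Lratd2 scored 39, 4 and 38, Asap1 10, 14 and 20, and Trib1, a pseudokinase gene, 42, 13 and 8. Gsdmc, Gsdmc2 and Adcy8 had no region at an end in any list. Where several regions lay at a gene's ends, the highest score of each list is given, so a gene's scores need not belong to the same region.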

How the data were processed

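Libraries were made with a Nextera kit and sequenced in pairs, per the labels' protocols. Bowtie2, Picard, MACS2 and mm10 are named, without versions or roles, per the submitters' processing notes. The names of the lists hold a tag starting with q and words for filtering, but the sources used here do not explain them, nor the use of the control, the read shift for Tn5 or whether libraries were pooled. The authors deposited 1 list of regions per treated dose, each region with a score of unstated scale.

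Regions were assigned by midpoint and coordinates are 1-based. Genes came from RefSeq GRCm38.p6, with no exons. Densities used mm10 chromosome lengths, assembly gaps included. Gene ends counted a region within 1 kb, and merged regions overlapped by at least 1 bp. Rank percentiles run over a whole list. No test was made, as a dose has 1 list. Counting and merging were tested on simulated data.

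The genes named were Myc, Pvt1, every gene of the window, list members listed at all doses and the 3 genes nearest to Pvt1 in density. Mycn, Mycl, Gsdmc, Gsdmc2, Gsdmc3, Adcy8, A1bg and the marker genes were named outside this rule, after their values were seen. Genes and lists were chosen with earlier results of these data known. Alternatives varied flank, score, width, merging, comparison and overlap. Work used Python 3.11.15, pandas 2.3.3 and numpy 2.4.6.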

Additional observations from a re-analysis of the deposited data

How the results depend on the processing

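Of 58 values recomputed under other settings, 34 stayed within their interval or within 1.5 times the count and 24 moved. With the gene bodies and the stretch between them alone, the density ratio to the rest of chromosome 15 was 1.41 at 0.1 µM and 1.97 at 1 µM, on 7 and 11 regions. In the stronger 50% of regions it was 1.46 at 0.1 µM. Against all other chromosomes it was 3.17, 2.73 and 3.31 in order of dose. Flanks of 250 or 1000 kb, the wider 50%, merging, covered base pairs and leaving out the first 3 Mb kept it within its interval, although with 1000 kb the new intervals lay below 1. Within 2.5 kb of an end, Myc had 2, 1 and 4 regions and Pvt1 1, 1 and 2; with the gene body and 10 kb, Myc had 2, 2 and 5 and Pvt1 7, 4 and 8. In the stronger 50%, Myc had 0 at 0.1 µM and 0 at 1 µM, and Pvt1 0 at 1 µM. In the wider 50%, Pvt1 had 0.900 regions per 100 kb at 0.1 µM. With a reciprocal overlap of 50%, 34.5% of the window's merged regions were at every dose, against 22.0% over the rest of chromosome 15, and in the stronger 50% the shares were 46.7% and 35.7%. The settings change which regions or bases are counted. A limit of 2.5 kb, or the gene body and 10 kb, can only keep or raise a count at the gene ends. The stronger or wider 50% can only keep or lower such a count or the Pvt1 density. The tally of 34 and 24 is therefore not a measure of how stable the results are. The cause of each move was not tested further. No paired analysis was possible because a dose has 1 list for its 2 libraries, which also means that leaving out a library was not possible. Depth is unknown, so what it limits could not be measured.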
